A study of Mus musculus with 30 samples.

Results

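The loss of Dgcr8 was compared between 2 neighbouring parts of the mouse embryonic heart field on all 16 mRNA arrays of a series of 30 arrays. For each gene, the change in the heart tube (log2 value in mutants minus log2 value in wild-type embryos) was set against the change of that gene in the progenitor tissue behind the tube. The difference was taken for all 20842 genes that the authors' gene tables name and that could be tied to a probe set of their own. These comprised 321 miRNA genes, 19853 protein-coding genes and 668 genes of other types.

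The tube sample (OFT-RV) joined the outflow tract and the right ventricle, and the progenitor sample (aSHF) was the anterior second heart field. Mutant embryos carried Mef2c-AHF-Cre/+ together with 2 floxed Dgcr8 alleles (Dgcr8 f/f), and embryos labelled wild-type were Dgcr8 f/+, with no Cre named. All were collected at E9.5 with 19 to 21 somite pairs. Each of the 4 groups (OFT-RV mutant, OFT-RV wild-type, aSHF mutant, aSHF wild-type) had 4 arrays, and each array held tissue of one genotype pooled from at least 5 litters. The Mef2c-AHF enhancer drives Cre in these progenitors and in cells that descend from them, so other cells in a dissected piece keep Dgcr8. The wild-type embryos had 1 floxed allele and, as labelled, no Cre, so an effect of Cre itself cannot be told apart from that of the deletion. The labels do not say whether a pair of tissue pools shared embryos.

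Dgcr8 is the RNA-binding subunit of the Microprocessor, in which the nuclease Drosha cuts hairpins out of long primary miRNA transcripts. Dicer then trims each hairpin to a mature miRNA, whose seed, bases 2 to 8, chooses the messages it represses. Without Dgcr8 primary transcripts are no longer cut, so they can pile up while mature miRNAs are lost. Cells of the second heart field move into the arterial pole and build the outflow tract and the right ventricle, so cells in the tube lie downstream of those in the progenitor tissue.

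Each tissue was normalized on its own by the authors. The median log2 value of an array was between 6.13 and 6.19 in OFT-RV and between 7.47 and 7.54 in aSHF, and for that reason a level in one tissue is not set against a level in the other. The labelled tissues were checked against their markers. Of 28 cardiomyocyte genes, all 28 lay above the array median on all 8 OFT-RV arrays and 23 did so on all 8 aSHF arrays. Of 28 second heart field progenitor genes, 20 did so in OFT-RV and 27 in aSHF. Genes of pharyngeal endoderm and epithelium, a neighbour of the progenitor tissue, were above the median on all arrays for 4 of 19 genes in OFT-RV and 17 of 19 in aSHF. For neural crest genes the count was 10 of 18 in OFT-RV and 17 in aSHF. For neural genes it was 3 of 13 and 10, and for epicardial genes 3 of 10 and 8. For erythroid genes it was 13 of 14 and 10, and for smooth muscle genes 12 of 13 and 11. Endothelial genes had 14 of 15 and 15, and branchiomeric muscle genes 3 of 10 and 4. A higher count in aSHF was thus not particular to progenitor genes. In such bulk samples fewer cells of a type and less RNA per cell cannot be told apart.

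Some arrays stood apart. On OFT-RV mutant replicate 4, 5 genes lay over 1 log2 unit above every other array of the group, led by the matrix gene Lum at 8.92, against 4.27 to 4.56 on the other mutant arrays. Wild-type replicate 1 of both tissues had high Xist and low Y-linked genes. Ddx3y, for example, was 5.06 there and 7.28 to 7.37 on the other OFT-RV wild-type arrays, and 5.89 there and 8.16 to 8.51 on the other aSHF wild-type arrays. Xist and Ddx3y, both chosen after their values were seen, also moved in step between tissues in mutants, with Xist higher on replicates 3 and 4 of each. The number of genes called by the difference is given below with and without OFT-RV mutant replicate 4 and wild-type replicate 1 of both tissues. Other counts and medians use all arrays unless stated. Mutant replicates 3 and 4 were not left out together.

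Of the 20842 genes, 44 differed between tissues in their mutant change (0.211%, limma, adjusted p under 0.05). In 42 the change was higher in OFT-RV than in aSHF (0.202%) and in 2 it was lower (0.0096%). Of these 44, 34 were miRNA genes, and all 34 were higher in OFT-RV. They made up 10.6% of the miRNA genes tested. The single direction did not hold in every fit. Without aSHF mutant replicate 2, 31 of 33 called miRNA genes were higher in OFT-RV, and with array weights 41 of 44. Only 8 protein-coding genes were called (0.0403% of those tested), 6 of them above 0 and 2 below. The remaining 2 were the long non-coding transcripts Mirg and 1700110I01Rik. Unadjusted p-values were under 0.05 for 1059 genes (5.08%). Without OFT-RV mutant replicate 4 the total was 42, of which 40 were among the 44, and all 34 miRNA genes remained. Without wild-type replicate 1 of both tissues, a choice made after seeing the data, it was 35, of which 34 were shared, with 27 miRNA genes and 7 protein-coding genes. Called miRNA genes numbered 19 once genes below the typical probe set in both tissues were left out.

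The 34 called miRNA genes changed by a median of 2.70 on the log2 scale in OFT-RV and 0.49 in aSHF. Their differences lay between 0.58 and 4.12 (median 1.73). Picking them by the difference on these same arrays favours unequal changes, so these figures and the ratio below describe the picked set. Over all 20842 genes the median difference was -0.022. Over all 321 miRNA genes it was 0.015, with 176 above 0 and 145 below, so the larger response in OFT-RV belonged to part of the class. On their own, all 34 were called in OFT-RV (0.446% of all genes) and 16 of them also in aSHF (0.178%, 37 genes). The 37 fell to 21 without aSHF wild-type replicate 3 and to 19 without aSHF wild-type replicate 4. Among all 321 miRNA genes, 75 were called in OFT-RV and 36 in aSHF. In 33 of the 34 the change was above 0 in both tissues. The ratio of the change in aSHF to that in OFT-RV had a median of 0.19. Mutant and wild-type arrays did not overlap for 34 of the 34 in OFT-RV (3.59% of all genes) and for 21 of the 34 in aSHF (1.62% of all genes), a separation that the call itself favours. On all 4 arrays of a group, 5 of the 34 lay below the array median in OFT-RV mutants, 27 in OFT-RV wild-type, 20 in aSHF mutants and 27 in aSHF wild-type.

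**Figure D1:**
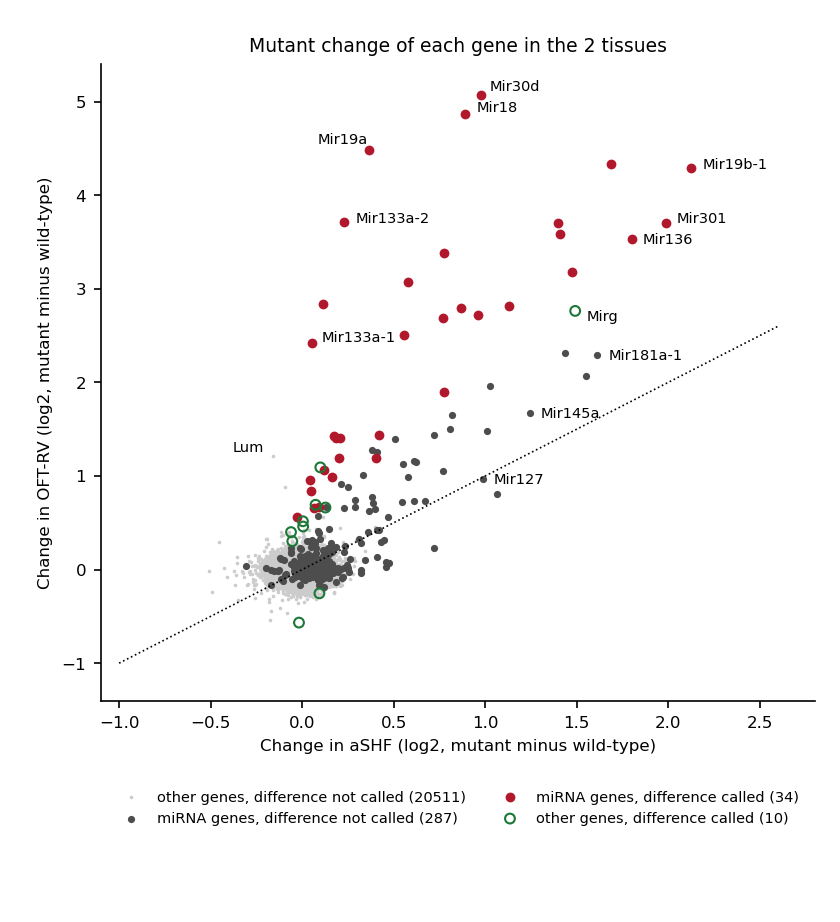
Change of each gene in OFT-RV (vertical axis, log2, mutant minus wild-type) against its change in aSHF (horizontal axis, same unit). Each point is 1 gene, red points are the 34 miRNA genes and green circles the 10 other genes whose difference passed, and the dotted line marks equal change. The red points all lie above the line, and the highest, Mir30d, stands at 5.07 in OFT-RV and 0.97 in aSHF.

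Sequences of the mature products show which of these genes encode related miRNAs. They are from RefSeq (GRCm38.p6), and 29 of the 34 genes had one there. Of these, 14 share a seed with another gene of the set, in 6 seed groups. The groups are printed to show which called loci encode miRNAs of one seed. Capitals mark the seed.

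The first group joins Mir15a and Mir16-1 on chromosome 14 with Mir322 on chromosome X.

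miR-15a-5p: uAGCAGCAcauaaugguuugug
miR-16-5p: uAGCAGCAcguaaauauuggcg
miR-322-5p: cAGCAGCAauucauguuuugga

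Mir17 and Mir20a lie in 1 cluster, and so do Mir19a and Mir19b-1, whose seed is another one. Mir18 and Mir92-1 of the same cluster have seeds of their own.

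miR-17-5p: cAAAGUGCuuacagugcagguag
miR-20a-5p: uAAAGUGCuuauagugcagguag
miR-19a-3p: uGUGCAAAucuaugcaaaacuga
miR-19b-3p: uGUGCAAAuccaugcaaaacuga
miR-18a-5p: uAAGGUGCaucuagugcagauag
miR-92a-3p: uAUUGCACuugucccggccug

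Mir130a and Mir301 share a seed, and so do Mir29a and Mir29b-1. The let-7 genes Mirlet7d, Mirlet7f-1 and Mirlet7f-2 share theirs, and both let-7f genes give the same mature miRNA.

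miR-130a-3p: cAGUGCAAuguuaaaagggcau
miR-301a-3p: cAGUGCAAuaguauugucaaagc
miR-29a-3p: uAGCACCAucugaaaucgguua
miR-29b-3p: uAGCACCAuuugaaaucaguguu
let-7d-5p: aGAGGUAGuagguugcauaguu
let-7f-5p: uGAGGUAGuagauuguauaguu

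The cluster that runs from Mir17 to Mir92-1 (the miR-17 cluster), a polycistron of 6 hairpins active in proliferating progenitors, differed as a whole. All 6 measured genes, at chr14:115043671-115044506 of GRCm38.p6, were called, with a median difference of 2.41. Their hairpins are cut from 1 transcript, so the 6 genes share a source. Mir19a had values of 9.04, 8.60, 8.71 and 9.08 in OFT-RV mutants, against 4.37, 4.40, 4.52 and 4.19 in OFT-RV wild-type. In aSHF it had 8.20, 7.73, 8.26 and 8.24 in mutants, against 7.87, 7.09, 8.19 and 7.81 in wild-type. The OFT-RV groups were far apart, while the aSHF groups overlapped.

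The difference for Mir19a was 4.12 (SE 0.25, adjusted p = 1.13e-08), the largest of the 20842 genes, made of a 22.4-fold rise in OFT-RV and a change of 0.37 (SE 0.21, adjusted p = 0.979) in aSHF. Mir18, its neighbour, had 9.97, 9.97, 9.71 and 10.18 in OFT-RV mutants, against 4.89, 5.21, 5.20 and 5.06 in wild-type, and 10.01, 9.73, 10.02 and 10.36 in aSHF mutants, against 9.18, 8.71, 9.42 and 9.24 in wild-type. Here neither tissue's groups overlapped, and the difference was 3.97 (SE 0.20). The hairpins of both are cut by the Microprocessor from the same stretch, and they are shown with that of Mir20a, with the annotated mature arms in capitals.

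Mir19a hairpin: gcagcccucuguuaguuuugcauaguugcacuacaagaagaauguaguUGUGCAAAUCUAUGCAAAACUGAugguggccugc
Mir18 hairpin: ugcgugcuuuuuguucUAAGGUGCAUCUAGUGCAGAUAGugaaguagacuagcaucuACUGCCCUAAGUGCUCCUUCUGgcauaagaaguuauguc
Mir20a hairpin: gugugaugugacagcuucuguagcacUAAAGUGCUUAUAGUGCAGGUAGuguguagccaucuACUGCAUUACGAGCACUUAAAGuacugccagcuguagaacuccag

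Mir20a had 11.07, 10.98, 10.70 and 11.14 in OFT-RV mutants, against 6.30, 6.90, 6.62 and 6.72 in wild-type, and 7.78, 7.38, 7.46 and 7.85 in aSHF mutants, against 5.77, 6.05, 5.92 and 5.96 in wild-type. It rose 20.2-fold in OFT-RV and 3.22-fold in aSHF, a difference of 2.65 (SE 0.18). The groups of both tissues were clear of each other. Mir19b-1 changed by 4.29 (SE 0.08) in OFT-RV and 2.13 (SE 0.11) in aSHF, its aSHF change being the largest among the 44 genes. That left it with a difference of 2.16, next to 2.17 (SE 0.13) for Mir92-1, and Mir17 had the lowest of the cluster at 1.71 (SE 0.14). Changes within aSHF thus ran between 0.37 and 2.13 along a single cluster, and those within OFT-RV between 3.18 for Mir17 and 4.87 for Mir18.

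In its paralogs on other chromosomes no gene was called. None of 5 genes of the miR-106a-363 cluster, at chrX:52741693-52742567, was called, and 4 of them had differences below 0 (median -0.24). Mir20b, a close relative of Mir20a, had 4.40, 4.45, 4.47 and 4.45 in OFT-RV mutants, against 4.32, 4.33, 4.38 and 4.33 in wild-type. In aSHF it had 5.49, 5.44, 5.59 and 5.50 in mutants, against 5.16, 5.14, 5.12 and 5.24 in wild-type. It was called in aSHF alone, with a difference of -0.24 (95% interval -0.365 to -0.111) that did not pass. Mir106a stood at -0.32 (95% interval -0.506 to -0.134). On every OFT-RV array Mir20b, Mir106a and Mir19b-2 lay below the 25th percentile (4.84 to 4.91), so their changes in OFT-RV may not be well measured. All 3 genes of the miR-106b-25 cluster were above 0 (median 0.08), Mir106b at 0.45, and none was called.

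**Figure D2:**
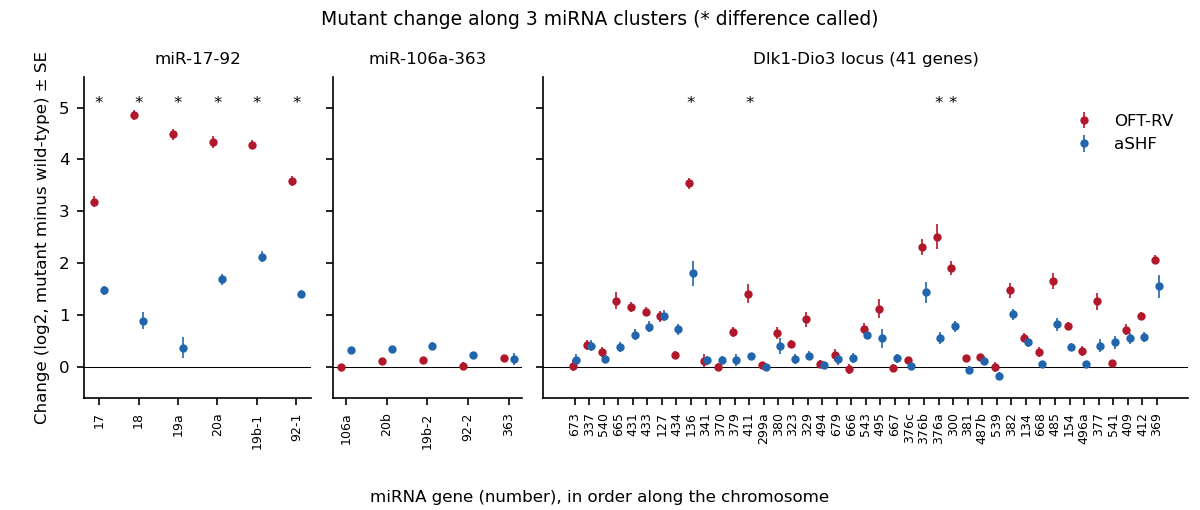
Change in OFT-RV (red) and in aSHF (blue) for each measured miRNA gene of 3 clusters in chromosomal order, on the log2 scale (mutant minus wild-type) with SE from 4 arrays a group, and an asterisk where the difference between tissues passed. All 6 genes of the miR-17 cluster carry an asterisk, none of 5 in its paralog does, and the Dlk1-Dio3 locus has 4.

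On chromosome X, the miR-322 and miR-503 cluster (chrX:53047997-53054349) had 3 of 5 measured genes called, with a median difference of 1.68. This cluster is expressed in early mesoderm and muscle precursors. Mir322 had 8.29, 8.31, 7.78 and 8.55 in OFT-RV mutants, against 5.28, 5.13, 5.22 and 4.98 in wild-type, and 6.05, 6.16, 6.19 and 6.29 in aSHF mutants, against 5.59, 5.66, 5.50 and 5.64 in wild-type. Neither tissue's groups overlapped, and the change was 8.44-fold in OFT-RV and 1.49-fold in aSHF (difference 2.50, SE 0.16). Mir503 differed by 1.91 (SE 0.13) and Mir351 by 1.68 (SE 0.17, adjusted p = 1.25e-05). Mir16-1 and Mir15a, which carry the seed of miR-322, differed by 1.02 (SE 0.16) and 0.99 (SE 0.18, adjusted p = 0.0221). They were 2 of 6 measured miR-15 and miR-16 genes called, and Mir15a lost its call in 4 of the 16 fits that left out 1 array.

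Within the miR-30 family, whose members are abundant in the heart, 3 of 6 genes were called and 5 were above 0 (median 1.40). Mir30d had 11.03, 11.06, 10.69 and 11.21 in OFT-RV mutants, against 5.86, 5.84, 5.87 and 6.14 in wild-type. In aSHF it had 8.52, 8.10, 8.21 and 8.57 in mutants, against 7.37, 7.38, 7.32 and 7.42 in wild-type. The groups did not overlap in either tissue, and the change was 33.6-fold in OFT-RV against 1.97-fold in aSHF.

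Mir30b, its neighbour, had 8.27, 8.13, 7.50 and 8.50 in OFT-RV mutants, against 4.68, 4.64, 4.74 and 4.82 in wild-type, and 6.16, 6.20, 6.33 and 6.67 in aSHF mutants, against 5.57, 5.62, 5.55 and 5.53 in wild-type. Both tissues' groups were separate, with a difference of 2.61 (SE 0.21, adjusted p = 5.16e-07). Mir30a differed by 1.92 (SE 0.19). Mir30e at 0.88 (SE 0.18, adjusted p = 0.0545) and Mir30c-2 at 0.67 (SE 0.14, adjusted p = 0.0854) lay just outside the threshold, and Mir30c-1 was at -0.21.

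Muscle miRNA genes, which are switched on as cardiac cells differentiate, had 3 called members, all with small changes in aSHF. Mir133a-2 had 8.17, 8.20, 8.39 and 8.92 in OFT-RV mutants, against 4.78, 4.44, 4.81 and 4.81 in wild-type, and 5.36, 5.41, 5.30 and 5.35 in aSHF mutants, against 5.08, 5.15, 5.15 and 5.11 in wild-type. Mir133a-1 had 7.40, 7.17, 7.20 and 7.55 in OFT-RV mutants, against 4.90, 4.86, 4.93 and 4.96 in wild-type, and 5.21, 5.16, 5.23 and 5.34 in aSHF mutants, against 5.23, 5.13, 5.16 and 5.21 in wild-type. Mir1a-2 had 7.17, 7.16, 6.68 and 7.39 in OFT-RV mutants, against 4.33, 4.05, 4.30 and 4.38 in wild-type, and 4.56, 4.49, 4.50 and 4.65 in aSHF mutants, against 4.43, 4.41, 4.42 and 4.49 in wild-type. In OFT-RV all 3 genes were widely separated. In aSHF the groups overlapped for Mir133a-1 and Mir1a-2 and were separate for Mir133a-2.

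The aSHF changes were 0.23 (SE 0.04) for Mir133a-2, 0.11 (SE 0.05) for Mir1a-2 and 0.06 (SE 0.05) for Mir133a-1, and none of them passed. On every aSHF array these genes lay below the 25th percentile (5.98 to 6.06), so their changes in aSHF may not be well measured. The differences of 3.48, 2.72 and 2.36 are 11.2-fold, 6.59-fold and 5.14-fold on a linear scale. Of 8 measured muscle miRNA genes 7 were above 0 (median 0.16), and the other 5 were not called. Among those was Mir1a-1, at the paired locus of Mir1a-2, with 0.19 (95% interval 0.0717 to 0.316). Mir1a-1 lay below the 25th percentile on every array of both tissues, so a larger difference may have been missed.

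Further genes with large differences were spread over the genome. Mir301 differed by 1.72 (SE 0.20) and Mir130a by 1.76 (SE 0.22, adjusted p = 0.000281), and both were called within each tissue as well. Mir181b-1, of a family known from vascular and blood cells, had 8.16, 8.31, 7.98 and 8.78 in OFT-RV mutants, against 4.63, 4.48, 4.58 and 4.71 in wild-type, and 8.93, 8.44, 8.60 and 9.46 in aSHF mutants, against 7.63, 7.33, 7.40 and 7.49 in wild-type. Both tissues' groups were separate, and the difference was 2.31 (SE 0.25). It was the only one of 6 miR-181 genes called (median 0.01), and Mir181a-1 beside it stood at 0.68 (95% interval 0.0712 to 1.28).

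Smaller differences were found in genes that changed little in aSHF. Mir218-2 (1.22, SE 0.14), Mir101a (1.26, SE 0.16), Mir31 (0.95, SE 0.13) and Mir27a (0.83, SE 0.12) were called in OFT-RV and not in aSHF. Both measured miR-29 genes, whose mature products are known to repress collagens, were called. Mir29b-1 stood at 0.92 (SE 0.07) and Mir29a at 0.58 (SE 0.10), with aSHF changes of 0.04 and 0.09. Mir34a, known as a p53 target, differed by 0.59 (SE 0.12, adjusted p = 0.0433) and lost its call in 14 of the 16 fits that left out 1 array.

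Of the let-7 family, whose members promote differentiation, 3 of 12 genes were called and 7 were below 0 (median -0.03). Mirlet7f-2 differed by 0.59 (SE 0.09, adjusted p = 0.002), Mirlet7d by 0.79 (SE 0.15) and Mirlet7f-1 by 0.79 (SE 0.15). In the same 16 fits the call of Mirlet7d was lost in 10 and that of Mirlet7f-1 in 11. None of 6 miR-99, miR-100 and miR-125 genes was called (median -0.14), the lowest being Mir125b-1 at -0.37. Loci of epithelium (miR-200 and miR-205, 6 genes), of pluripotent cells (miR-302 and miR-367, 5 genes) and of endothelium and blood (miR-126, miR-144 and miR-451, 5 genes) had no called member, nor had the 5 genes that need no Microprocessor. Of 3 miR-23, miR-24 and miR-27 genes Mir27a was called and Mir23a stood at 0.43, and of 2 miR-26 genes Mir26a-1 stood at 0.48 (adjusted p = 0.160). Both miR-199 genes were below 0.

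**Figure D3:**
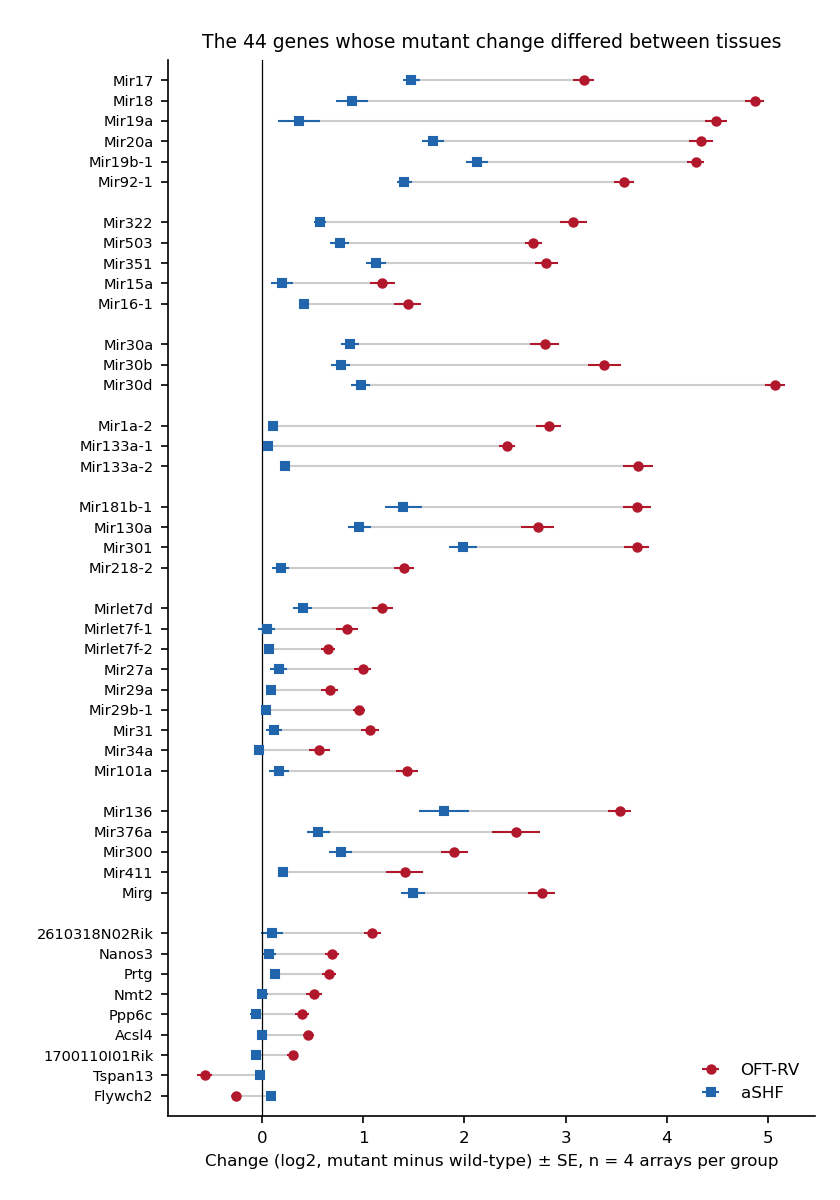
Change in OFT-RV (red circles) and in aSHF (blue squares) for each of the 44 called genes, on the log2 scale (mutant minus wild-type) with SE from 4 arrays a group, in groups of loci and families. For the 3 muscle genes the aSHF squares lie at 0.06 to 0.23 and the OFT-RV circles at 2.42 to 3.71.

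The Dlk1-Dio3 locus, an imprinted region that expresses its miRNAs from the maternal chromosome, gave 41 measured genes, of which 4 were called and 33 were above 0 (median 0.24). The list also held Mir342 and Mir345, which lie outside the imprinted region and were not called. Mir136 had 8.03, 7.96, 7.54 and 7.52 in OFT-RV mutants, against 4.37, 4.13, 4.15 and 4.26 in wild-type, and 7.37, 6.04, 6.75 and 7.39 in aSHF mutants, against 4.96, 5.13, 5.14 and 5.11 in wild-type. No groups overlapped, and the difference was 1.74 (SE 0.30, adjusted p = 0.00943). Mir376a (1.95, SE 0.29), Mir411 (1.20, SE 0.21) and Mir300 (1.12, SE 0.19) were the others.

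Genes beside Mir136 had other values. Mir127, chosen after its values were seen, lies shortly before it. It had 7.24, 6.79, 7.35 and 7.43 in OFT-RV mutants, against 6.19, 6.24, 6.25 and 6.25 in wild-type, and 8.32, 8.30, 8.50 and 8.74 in aSHF mutants, against 7.33, 7.47, 7.40 and 7.72 in wild-type. It was called in both tissues, by 0.97 (SE 0.11) in OFT-RV and 0.99 (SE 0.11) in aSHF, and the interval of its difference (-0.369 to 0.338) covers 0 and leaves room for either sign.

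Mir434, between Mir127 and Mir136, had 4.53, 4.31, 4.23 and 4.50 in OFT-RV mutants, against 4.11, 4.13, 4.19 and 4.22 in wild-type, and 5.85, 5.41, 5.82 and 6.004 in aSHF mutants, against 5.05, 5.20, 4.94 and 5.01 in wild-type. Its groups were separate in both tissues, it was called in aSHF alone, and its difference was -0.49 (95% interval -0.781 to -0.197) without passing over all genes. On every OFT-RV array it lay below the 25th percentile (4.84 to 4.91), so its change there may not be well measured. Mirg, the long transcript that spans miRNA genes of this locus, had 9.21, 8.76, 8.84 and 9.28 in OFT-RV mutants, against 6.30, 6.21, 5.97 and 6.55 in wild-type, and 9.31, 9.06, 9.20 and 9.72 in aSHF mutants, against 7.92, 7.68, 7.91 and 7.82 in wild-type. It differed by 1.27 (SE 0.20, adjusted p = 0.00374), and it was the only one of 6 host transcripts of miRNAs called. The measured miRNA genes it spans were not called, with differences from -0.40 for Mir541 to 0.85 for Mir377. The called miRNA genes of the locus are not among them.

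**Figure D4:**
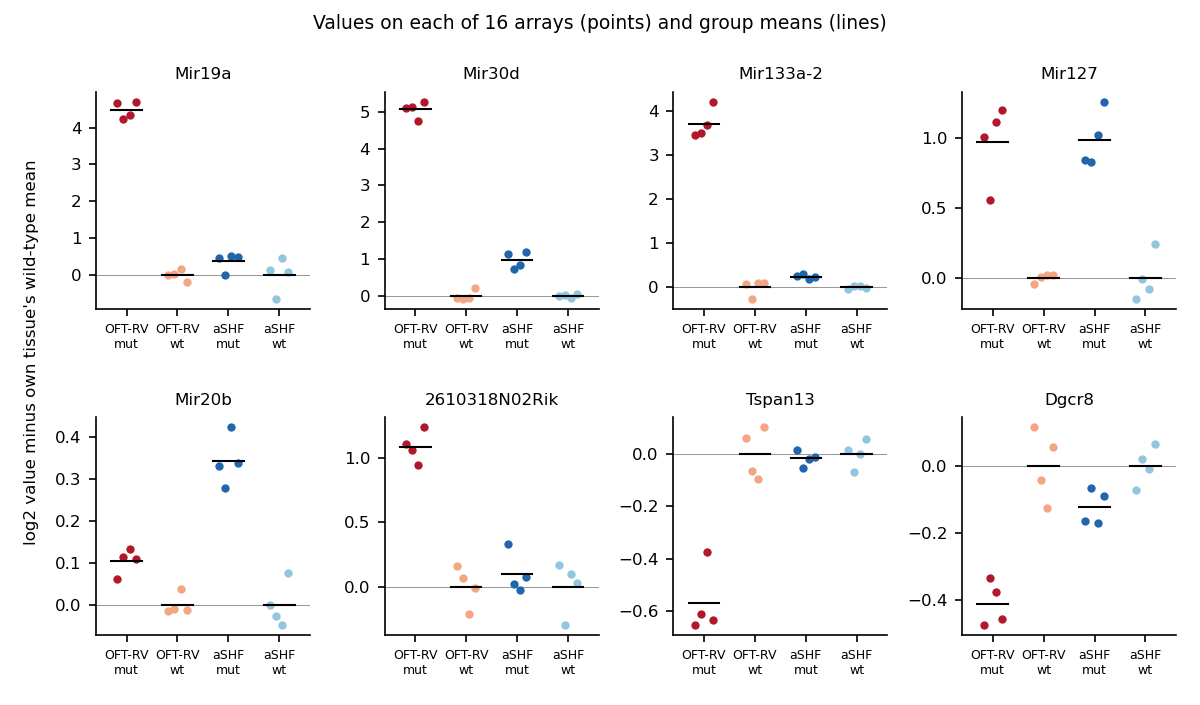
Values of 8 genes on each of the 16 arrays, on the log2 scale minus the wild-type mean of the same tissue, with lines at group means. Mir127 sits at a similar height in the mutants of both tissues, while Mir19a, Mir30d and Mir133a-2 stand far higher in OFT-RV mutants than in aSHF mutants.

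A further 18 miRNA genes were called in both tissues without a called difference. With the 16 above they make 34 genes called in both, of which 31 had the larger change in OFT-RV. Mir145a and Mir143, a pair known from smooth muscle, had differences of 0.43 (95% interval 0.0712 to 0.793) and 0.70 (95% interval 0.335 to 1.07). Mir301b stood at 0.93 (95% interval 0.524 to 1.33, adjusted p = 0.0632). Chosen after their values were seen, Mir22 stood at 0.55 (95% interval 0.275 to 0.817), Mir298 at 0.72 (95% interval 0.335 to 1.1) and Mir296 at -0.26 (95% interval -0.605 to 0.0851). Of 41 genes called in OFT-RV alone, 18 were called by the difference. Those with the largest p for the difference among the 41 were Mir134, Mir409 and Mir380, at 0.09, 0.17 and 0.25, so a call in OFT-RV alone did not amount to a difference between tissues.

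The 8 called protein-coding genes had differences under 1 log2 unit. The largest was that of 2610318N02Rik, an uncharacterised gene on chromosome 16 that spans Mir130b and Mir301b. It had 8.09, 8.05, 7.93 and 8.22 in OFT-RV mutants, against 7.14, 7.05, 6.76 and 6.97 in wild-type, and 10.49, 10.18, 10.13 and 10.23 in aSHF mutants, against 10.33, 9.86, 10.26 and 10.18 in wild-type. OFT-RV groups were separate and aSHF groups overlapped, with a difference of 0.99 (SE 0.14, adjusted p = 0.002), which is 1.99-fold.

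Nanos3, which encodes an RNA-binding factor that keeps germ cells alive, lies 2164 bp from Mir181d. It had 7.18, 7.23, 6.98 and 7.20 in OFT-RV mutants, against 6.45, 6.49, 6.54 and 6.34 in wild-type, and 7.74, 7.79, 7.64 and 7.88 in aSHF mutants, against 7.55, 7.79, 7.66 and 7.76 in wild-type. The difference was 0.62 (SE 0.10). With 2610318N02Rik and Mirg it makes 3 of 10 called genes outside the miRNA class within 5 kb of a miRNA gene, where 3.32% of all such genes lie.

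Prtg, a receptor of the early embryo, had 10.26, 10.23, 10.10 and 10.16 in OFT-RV mutants, against 9.64, 9.64, 9.41 and 9.40 in wild-type, and 12.24, 12.22, 12.26 and 12.26 in aSHF mutants, against 12.11, 12.16, 12.21 and 11.996 in wild-type. Its groups were separate in both tissues, with a 1.58-fold change in OFT-RV and a 1.09-fold change in aSHF that did not pass (difference 0.54, SE 0.09). Acsl4, which activates long-chain fatty acids, differed by 0.45 (SE 0.07, adjusted p = 0.00557). It had 9.56, 9.46, 9.40 and 9.51 in OFT-RV mutants, against 9.02, 8.91, 9.04 and 9.13 in wild-type, and a change of 0.01 in aSHF.

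Nmt2, which attaches myristate to proteins, differed by 0.51 (SE 0.10, adjusted p = 0.0374). Ppp6c, the catalytic subunit of a protein phosphatase, differed by 0.46 (SE 0.09, adjusted p = 0.0461). Of the 16 fits that left out 1 array, Nmt2 lost its call in 12, Ppp6c in 14 and the non-coding 1700110I01Rik (0.36, SE 0.07) in 12. The calls of 2610318N02Rik, Nanos3, Prtg, Acsl4 and Tspan13 held in all 16. With array weights 18 protein-coding genes were called.

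Both genes with the lower change in OFT-RV are protein-coding. Tspan13, a tetraspanin of the cell membrane, had 9.78, 9.82, 10.06 and 9.80 in OFT-RV mutants, against 10.49, 10.37, 10.34 and 10.53 in wild-type, and 11.13, 11.06, 11.09 and 11.10 in aSHF mutants, against 11.13, 11.04, 11.11 and 11.17 in wild-type. The OFT-RV groups were separate and the aSHF groups overlapped, and the difference was -0.55 (SE 0.09, adjusted p = 0.00374). Flywch2, a zinc finger gene, was at -0.25 (SE 0.05) in OFT-RV and 0.09 in aSHF. It was called in neither tissue, its difference was -0.35 (SE 0.07, adjusted p = 0.0386), and this call was lost in 15 of the 16 fits that left out 1 array.

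Next in line among the lower ones, all outside the threshold, were Kcnn2, a calcium-activated potassium channel (-0.39, SE 0.08, adjusted p = 0.0520), Cav3, the muscle caveolin (-0.43, adjusted p = 0.109), Smad9, a BMP signal carrier (-0.36) and Syt17 (-0.34). Of 16 protein-coding genes called in OFT-RV, 7 were called by the difference. Among the other 9, chosen after their values were seen, were Ddx3x (0.47), Lcor (0.41), Ak4 (0.36), Polr3g (0.32), Clcn3 (0.30) and Rhebl1 (0.25). No protein-coding gene was called in aSHF.

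Dgcr8 itself was called lower within OFT-RV (-0.41, SE 0.06, adjusted p = 0.00753) and not within aSHF (-0.12, SE 0.05, adjusted p = 0.979), and its difference did not pass. It had 7.63, 7.77, 7.73 and 7.65 in OFT-RV mutants, against 8.22, 8.06, 7.98 and 8.16 in wild-type, and 10.18, 10.27, 10.17 and 10.25 in aSHF mutants, against 10.27, 10.36, 10.33 and 10.41 in wild-type. The OFT-RV groups were separate and the aSHF groups overlapped. The 95% interval of its difference ran from -0.449 to -0.125. Where its probe set lies relative to the floxed part was not given in the sources used here, so the values may not measure the deleted allele.

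Outside miRNA genes and Mirg, no member of 20 gene lists was called. Of 22 miRNA machinery genes 15 were above 0 (median 0.02), with Tnrc6a, a scaffold of the silencing complex, at 0.31 (adjusted p = 0.372) and Lin28b, which blocks let-7 maturation, at 0.18. Of 20 textbook let-7 targets 15 were above 0 (median 0.09), with Ccnd1, a cyclin of the early cell cycle, at 0.29 (adjusted p = 0.284) and Nr6a1 at 0.24. Textbook targets of the miR-17 and miR-302 seeds (12 of 20 above 0, median 0.03), of miR-1 and miR-133 (13 of 20, median 0.02) and of miR-30 (9 of 18, median 0.01) were close to the median of all genes, 40.7% of which lay above 0. Tpm4, a tropomyosin gene and target of muscle miRNAs, was at 0.28, the channel gene Kcnj2 at -0.19 and Lhx1 at -0.25.

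Lineage genes gave no call. Here and below, a difference below 0 can come from a fall in OFT-RV or a rise in aSHF, and the reverse above 0. Of 28 second heart field progenitor genes 18 were below 0 (median -0.04), with Fgf8, a growth factor of these progenitors, at -0.20 (a change of 0.10 in OFT-RV and of 0.29 in aSHF). Tbx1 stood at -0.15 and Wnt11 at -0.15. Of 28 cardiomyocyte genes 17 were above 0 (median 0.04), with the natriuretic peptide gene Nppb at 0.27, the atrial myosin gene Myh6 at 0.25 and Pln, a brake on calcium uptake, at -0.23. Cald1 (0.29) and Tagln (0.21), both of the smooth muscle contractile apparatus, led a list of which 7 of 13 were above 0. Of 10 branchiomeric muscle genes 9 were below 0 (median -0.16), with Tcf21 at -0.26.

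Of 18 neural crest genes 12 were below 0, with Prrx1 at -0.33 and Twist1 at -0.28, and of 15 endothelial and endocardial genes 11 were below 0, with the tight junction gene Cldn5 at -0.26. Endoderm and epithelium genes were below 0 for 11 of 19 (median -0.08), although the keratin gene Krt18 stood at 0.29. Erythroid genes were below 0 for 12 of 14 (median -0.04), with Tal1 at -0.15, although 13 were higher in OFT-RV mutants and 14 in aSHF mutants. Neural genes were above 0 for 9 of 13, with the neuronal gene Stmn2 at 0.49 (a change of 0.13 in OFT-RV and -0.36 in aSHF). Epicardial genes were below 0 for 6 of 10, with Tbx18 at 0.27 (a change of -0.02 in OFT-RV and -0.28 in aSHF). Extracellular matrix genes were above 0 for 14 of 21 (median 0.08). Lum and Postn (chosen after its values were seen) were high on OFT-RV mutant replicate 4, where Postn was 9.48, against 5.38 to 5.53 on the other mutant arrays. Of 25 cell cycle genes 17 were above 0 (median 0.04), and of 30 retinoic acid, BMP, Wnt and Notch response genes 21 were below 0 (median -0.06), with Sp5 at -0.27, Cyp26a1 at 0.25 and Id2 at 0.16. Of 22 p53 targets and apoptosis genes 12 were above 0 (median 0.01).

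Genes that span a called miRNA gene on its own strand were looked at one by one. There were 4 of them with a probe set of their own, over 5 called miRNA genes, and none was called. Slit3, a guidance cue that spans Mir218-2, was at 0.03. Ska2, over Mir301, was at -0.04, and Dleu2, over Mir15a and Mir16-1, at 0.19 (95% interval -0.00204 to 0.376). Dleu2 lay below the 25th percentile of every array, at 3.73 to 3.99 in OFT-RV and 4.50 to 4.81 in aSHF. A change of Dleu2 may therefore have been missed. Huwe1, a ubiquitin ligase gene over Mirlet7f-2, was at 0.02.

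The 14 miRNA arrays measured mature products in the same design, with 3 arrays in each OFT-RV group and 4 in each aSHF group. Of 1908 mature miRNAs, 3 differed between tissues (0.157%), all with the lower change in OFT-RV. None of them comes from a called miRNA gene. The product miR-378b had 2.12, 2.57 and 1.85 in OFT-RV mutants, against 4.41, 4.25 and 4.64 in wild-type, and 1.06, 1.12, 1.17 and 0.77 in aSHF mutants, against 0.68, 1.09, 1.34 and 1.06 in wild-type. Its aSHF values all lie below 2.02, the 95th percentile of the background probe sets, so the difference of -2.24 (SE 0.26, adjusted p = 0.00126) sets a fall in OFT-RV against values within background in aSHF.

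Both others come from the Dlk1-Dio3 locus. The product miR-134-5p had 4.87, 4.60 and 4.41 in OFT-RV mutants, against 6.09, 6.04 and 6.36 in wild-type, and 7.03, 6.84, 7.38 and 7.21 in aSHF mutants, against 7.56, 7.37, 7.58 and 7.33 in wild-type. The groups were separate in OFT-RV and overlapped in aSHF, with a difference of -1.19 (SE 0.20, adjusted p = 0.0286). The product miR-543-3p had 1.35, 1.12 and 1.27 in OFT-RV mutants, against 2.95, 3.02 and 3.23 in wild-type, and 4.34, 5.07, 5.06 and 4.30 in aSHF mutants, against 4.62, 4.88, 4.61 and 5.03 in wild-type (difference -1.73, SE 0.27, adjusted p = 0.0200), and its OFT-RV mutant values lay within background. On the mRNA arrays the genes Mir134 and Mir543 (the second chosen after its values were seen) stood at 0.09 and 0.12. Only 1 of the 3 calls was left without aSHF wild-type replicate 1 or any one OFT-RV wild-type array.

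For the called miRNA genes, the brightest mature product was above background for 24 genes, which share 23 distinct products. Of these 23, 22 were lower in OFT-RV mutants (median change -0.50) and 20 in aSHF mutants (median -0.22). Their differences were below 0 for 20 of 23, with a median of -0.30. Over all mature miRNAs, most of them within background, the medians were -0.0044 in OFT-RV, -0.0091 in aSHF and 0.0028 for the difference. The counts of the 23 rest in part on OFT-RV mutant replicate 3. It lay over 0.5 below both other arrays of its group for 12 of the 23, and for 74 of 309 mature miRNAs above background. Without it, a setting chosen after seeing the data, 17 were lower in OFT-RV mutants (median -0.24), and the differences were below 0 for 12 (median -0.04). Without aSHF mutant replicate 4 the aSHF median was -0.13. For 8 of the 23 the mean of at least 1 group lay within background, miR-30b-5p and miR-301a-3p among them, so their differences are not well measured. Of the other 15, 15 were lower in OFT-RV mutants and 14 in aSHF mutants, and the differences lay between -0.84 and -0.0031 (median -0.30). These figures include OFT-RV mutant replicate 3. Without it miR-17-5p (0.12), miR-19b-3p (0.10), miR-20a-5p (0.034) and miR-16-5p (0.029) were higher in OFT-RV mutants, and the rest of the 15 lower. The differences of the 15 were not counted without that array. For some of them, miR-17-5p included, leaving it out raised the OFT-RV change by more than the size of the difference. For others it did not. That all 15 differences lay below 0 thus rests on that array. Not one of the 23 passed the test, in the difference or within OFT-RV (0.367% of mature miRNAs called) or aSHF (0% called). For the difference 3 had an unadjusted p under 0.05, namely miR-351-5p (-0.35), miR-92a-3p (-0.41) and miR-300-3p (-0.84). In OFT-RV the groups were separate for 8 of 23, against 12.9% of all mature miRNAs. These sets are unlike, since the 23 were picked as above background and only 309 of all 1908 were. The share among the 309 was not counted, so the 8 cannot be read as an excess. A product of several loci, such as let-7f-5p or miR-133a-3p, cannot be told apart by locus.

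**Figure D5:**
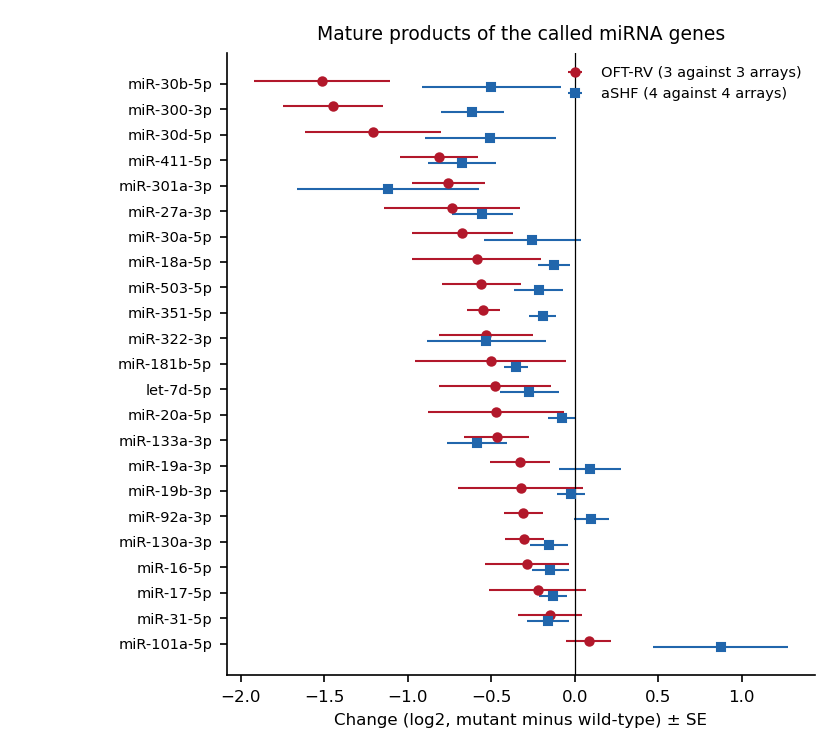
Change of the brightest mature product of each called miRNA gene in OFT-RV (red circles, 3 against 3 arrays) and in aSHF (blue squares, 4 against 4 arrays), on the log2 scale (mutant minus wild-type) with SE. Of the 23 products, 22 lie below 0 in OFT-RV and 20 in aSHF, and 17 lie below 0 in OFT-RV without mutant replicate 3.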

How the data were processed

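The authors' deposited array values are on a log2 scale. The submitters' processing notes name RMA and oligo, without versions, and the array medians show that each tissue was normalized alone. Their deposited gene tables give, per the file headers, a log2 change with its linear ratio (fold), p-values and adjusted p-values, and a t and a B score, and the miRNA tables also a transcript length. These were used only to tie gene names to probe sets, by equal mean value within 1e-06. Of 20889 listed genes, 127 matched several probe sets of identical values, of which the first was taken. Left out were 45 genes that share a probe set and 2 second listings of a symbol. A further 30 value columns match no sample label and were not used.

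One limma 3.58.1 fit (R 4.3.3) of the 4 group means gave each difference, and each tissue's change came from a fit of its own 8 arrays. A gene was called at a Benjamini-Hochberg adjusted p under 0.05, taken over the 20842 genes or the 1908 mature miRNAs. SE is the moderated standard error. On simulated data with 50 genes at each size, 43 differences of 0.5 were recovered and all 50 at 1, 2 and 4, with 10 false calls. The simulated noise was independent between genes and arrays, which real arrays need not follow, so these figures are not error rates of the real test. Labels say biological replicates, and the number of arrays limits the precision. Sequences, positions and spanning genes are from RefSeq (GRCm38.p6) and not from the authors' locations, whose build no source used here gives.

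Members and lists were chosen with earlier results of these data known. Genes named are Dgcr8, every called gene, the 6 protein-coding genes with the smallest p in each direction, up to 3 members of a list, spanning genes, products of called genes, and those called in 1 tissue with the largest p for the difference. Alternatives were replicate blocks, leaving out arrays, array weights, joint scaling, dim genes, all 35556 probe sets, and other spread estimates.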

Additional observations from a re-analysis of the deposited data

Results flagged for a closer look

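Between tissues the mutant change differed for 44 genes, of which 34 were miRNA genes and 8 protein-coding, and for 3 mature miRNAs. These counts come from the test of the difference itself.

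Of 180 groups of 4 arrays of the called genes and Dgcr8, 12 had an array apart from the rest by Dixon's test, and chance flags about 1 in 20. In OFT-RV mutants this was replicate 3 for Tspan13 (10.06, next 9.82). In OFT-RV wild-type pools it was replicate 4 for Mir30d (6.14, next 5.87) and Mir16-1 (5.13, next 5.29), and replicate 2 for Mir133a-2 (4.44, next 4.78). In aSHF mutants it was replicate 4 for Mir92-1 (9.51, next 9.42), Mir101a (6.84, next 6.44), Mirlet7d (8.08, next 7.69) and Nmt2 (9.88, next 10.07), replicate 2 for Mir19a (7.73, next 8.20) and replicate 1 for Acsl4 (9.62, next 9.55). In aSHF wild-type pools it was replicate 2 for Mir503 (7.36, next 6.99) and replicate 1 for Mir136 (4.96, next 5.11). Thus 4 of the 12 fell on aSHF mutant replicate 4.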

How the results depend on the processing

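Leaving out 1 array gave 36 to 44 genes, 30 to 36 miRNA genes and 5 to 9 protein-coding genes that differ between tissues, 19 to 43 genes changed in aSHF, 77 to 88 in OFT-RV and 1 to 8 mature miRNAs that differ, 8 without OFT-RV mutant replicate 2. Dgcr8 stayed between -0.33 and -0.25 and did not pass. In aSHF, 21 genes were left without wild-type replicate 3 and 19 without replicate 4. The 5 protein-coding genes were left without each of aSHF wild-type replicates 1, 3 and 4, aSHF mutant replicates 3 and 4, OFT-RV wild-type replicate 4 and OFT-RV mutant replicates 1 and 2. Of the 44 genes, 36 passed without any single array and 22 under all 27 settings, although 15 of the 44 were not tested with dim genes left out. Dim genes left out gave 30 genes, 19 of them miRNA genes, and 1 mature miRNA. Adjusting over all probe sets gave 32 genes, 5 of them protein-coding. Array weights gave 64 genes, 43 of the 44 among them, with 18 protein-coding. They also gave 44 miRNA genes, 41 of these higher in OFT-RV. Without aSHF mutant replicate 2, 31 of 33 called miRNA genes were higher. A fit with trend and robust spread gave 1 mature miRNA. Quantile normalization of all arrays together gave 47 and centring 46, with the median of all genes at -0.0274 and -0.0067.

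Replicate numbers did not meet the rule for pairing, a correlation of deviations over 0.1 in every pair. Under one number it ran from -0.0911 to 0.672 between genotypes in aSHF, from 0.019 to 0.239 in OFT-RV, from 0.0805 to 0.327 between tissues in mutants and from -0.181 to 0.551 between tissues in wild-type. With the number as a replicate block within each tissue 49 genes differed, 42 of them among the 44, and with a block across tissues 50. A block of same-numbered pools of a genotype across tissues, chosen after seeing the data, gave 53, with 44 miRNA genes. Within a tissue the block gave 51 genes in aSHF and 95 in OFT-RV, and 3 mature miRNAs that differ, of which 1 is among the 3 above and 1 had the higher change in OFT-RV. Dgcr8 did not pass under any of these (adjusted p = 0.361, 0.285 and 0.385).

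Signs turned for few genes. Leaving out 1 array put the Mir127 difference between -0.10 and 0.12, at 0.035, 0.010 and 0.076 without aSHF wild-type replicates 1 and 3 or mutant replicate 4. Without both wild-type replicates 1 it was 0.021, and the Mir543 difference -0.0076. The Mir134 difference was -0.010 with joint quantile normalization. The Postn difference lay between -0.029, without OFT-RV mutant replicate 4, and 1.34, and the Slit3 difference between -0.0030, without OFT-RV mutant replicate 1, and 0.086. The causes were not tested.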
